A study of Mus musculus with 24 samples.

Results

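The genes described here are 42 mouse genes of the interferon response and of antigen presentation, followed in liver and kidney of mice without Nudt12 and of wild-type mice, and in liver around the day. They were taken by symbol from the 3 expression tables, where they fill 43 of 50765 rows, because Irgm1 has a second row on an alternative contig. The NUDT12 enzyme hydrolyses NADH and NAD, and it can decap RNAs that start with NAD. The knockout mice (KO) lacked 58 bp of exon 6 of Nudt12 on both alleles, a deletion made with Cas9 and guide RNAs in B6D2F1/J embryos, which carry C57BL/6J and DBA/2J alleles. The founders were crossed with C57BL/6J, and 1 mouse line was studied, with wild-type mice (WT) for comparison.

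The groups were livers of KO and WT mice aged 3 to 4 months (3 and 3 libraries), kidneys of that cohort (3 KO and 2 WT), and livers of KO and WT mice aged 4 to 6 months collected over the day (6 and 6 libraries). The third WT kidney was not analysed here. The time-course mice adapted for 10 days to a cycle of 12 h light and 12 h dark. Collection was every 4 h, from zeitgeber time (ZT) 0, when lights came on, to ZT20. There was 1 library for each genotype at each time. The labels do not say that libraries came from separate animals, so the p-values measure the spread between these libraries. The approximate depth was 12.5 to 28.6 M estimated reads per library, with the WT library of ZT8 the shallowest. Nudt12 itself averaged 226 ± 12.9 normalized counts in KO livers and 1158 ± 160 in WT livers (SD, n = 3 each), and it fell in all 3 tables (log2 fold change -2.34, -2.34 and -2.17 in liver, kidney and time course; limma adjusted p = 0.00944, 0.0404 and 0.0211). The marker lists matched the labelled tissues. Hepatocyte markers summed to 878664 to 2019840 normalized counts per liver library, and proximal tubule markers to 677555 to 794403 per kidney library.

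Interferons are secreted when cells sense foreign nucleic acids, among other signals. Type I and type III interferons act through JAK kinases on the factor ISGF3, which holds STAT2 and IRF9 and binds the interferon-stimulated response element (ISRE). Interferon gamma acts on genes with a gamma-activated site (GAS). The target genes encode RNA sensors, antiviral enzymes, GTPases that attack the vacuoles of intracellular pathogens, chemokines, and the machinery that loads peptides on MHC class I and class II molecules. A liver without infection keeps a low tone of these genes, in hepatocytes, Kupffer cells and endothelium. In bulk tissue, fewer cells of a type and less RNA per cell cannot be told apart.

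The promoters were searched for the letters of interferon elements close to the start site, and binding was not tested. Of the 42 genes, 32 had at least 1 promoter in the RefSeq table (build GRCm38.p6), giving 37 windows of 300 bases that run from 250 bases before the start to 50 after it. The ISRE core, GAAA then any 2 bases then GAAA, searched on both strands, was found in 17 of the 37 windows, each of a different gene, against 3.44% of all 32851 windows. The GAS palindrome TTCNNNGAA was found in 7 of 37 against 8.3% of all windows, and the E-box CACGTG, the element of the CLOCK and BMAL1 proteins, in 0 of 37 against 7.15%. No match of a motif overlapped a match of another motif in these windows. The 6 windows printed here belong to 4 genes with a daily rhythm (Ifih1, Ddx58, Irf7 and Gbp3) and to the pair with the widest fitted rhythm among genes with a dark-phase peak, leaving out the alternative-contig row of Irgm1 (Oasl1 and Stat2). Capitals mark the ISRE core on either strand, and all sequences read 5′ to 3′ on the gene's strand.
Ifih1 (chr2:62646206-62646505, minus strand): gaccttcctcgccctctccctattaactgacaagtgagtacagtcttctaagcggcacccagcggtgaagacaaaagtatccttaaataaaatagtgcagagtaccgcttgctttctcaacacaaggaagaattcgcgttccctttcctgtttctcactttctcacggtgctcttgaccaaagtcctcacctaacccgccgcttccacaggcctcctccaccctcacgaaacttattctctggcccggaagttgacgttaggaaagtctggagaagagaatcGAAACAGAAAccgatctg
Ddx58 (chr4:40239776-40240075, minus strand): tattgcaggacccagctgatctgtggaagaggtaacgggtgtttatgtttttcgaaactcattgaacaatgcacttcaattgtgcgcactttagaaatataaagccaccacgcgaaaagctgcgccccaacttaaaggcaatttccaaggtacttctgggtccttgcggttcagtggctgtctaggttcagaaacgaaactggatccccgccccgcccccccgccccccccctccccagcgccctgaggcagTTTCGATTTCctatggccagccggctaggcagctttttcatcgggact
Irf7 (chr7:141266375-141266674, minus strand): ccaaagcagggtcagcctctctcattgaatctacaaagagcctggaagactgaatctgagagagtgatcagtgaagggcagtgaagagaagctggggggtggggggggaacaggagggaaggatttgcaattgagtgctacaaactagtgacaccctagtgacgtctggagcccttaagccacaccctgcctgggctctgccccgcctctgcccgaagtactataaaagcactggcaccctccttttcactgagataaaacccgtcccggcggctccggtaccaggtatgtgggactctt
Gbp3 (chr3:142559794-142560093, plus strand): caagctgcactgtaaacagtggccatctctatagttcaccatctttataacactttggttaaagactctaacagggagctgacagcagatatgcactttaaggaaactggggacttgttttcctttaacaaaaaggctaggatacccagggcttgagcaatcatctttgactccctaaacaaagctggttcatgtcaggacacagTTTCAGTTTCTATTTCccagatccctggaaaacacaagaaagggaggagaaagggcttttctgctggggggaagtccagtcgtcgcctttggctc
Oasl1 (chr5:114922990-114923289, plus strand): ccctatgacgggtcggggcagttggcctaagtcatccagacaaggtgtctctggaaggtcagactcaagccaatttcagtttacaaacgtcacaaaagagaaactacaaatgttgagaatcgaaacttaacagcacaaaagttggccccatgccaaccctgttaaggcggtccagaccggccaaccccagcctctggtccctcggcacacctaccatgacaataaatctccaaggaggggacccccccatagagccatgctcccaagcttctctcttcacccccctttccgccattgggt
Stat2 (chr10:128270248-128270547, plus strand): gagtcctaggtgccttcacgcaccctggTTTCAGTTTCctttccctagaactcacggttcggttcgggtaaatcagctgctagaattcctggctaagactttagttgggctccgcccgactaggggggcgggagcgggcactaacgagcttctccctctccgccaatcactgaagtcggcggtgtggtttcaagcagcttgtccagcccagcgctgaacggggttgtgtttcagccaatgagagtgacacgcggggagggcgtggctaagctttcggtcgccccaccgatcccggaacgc
The matches of Gbp3 overlap each other and begin 45 and 39 bases before the start, and a second window of Gbp3 held none. The match of Stat2 begins 222 bases before the start, and those of Ddx58 and Ifih1 begin 2 and 32 bases after it. The windows of Irf7 and Oasl1 held no match to these letters. Among the other members, Isg15 held 3 overlapping matches that begin 78, 72 and 66 bases before the start, and Ifit1, Ifit3, Irgm1 and Oas1a held 2 each.

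A few of these genes had a daily rhythm in liver, and the calls depended on single times. In the time-course livers 5 of the 43 rows had a 24 h rhythm, and all 5 peaked between ZT3.48 and ZT10.26. The rhythm was tested as a cosine and sine of 24 h beside genotype, on log2(value + 1) in limma with Benjamini-Hochberg adjustment, and 5.8% of the 18702 genes tested passed at 0.05. The members' share was 11.6%, and 20 of 43 (46.5%) passed an unadjusted p of 0.05, against 21% of all genes. The fitted peak lay between ZT0 and ZT12, with the lights on, for 38 of 43 members (88.4%), against 50.6% of all genes. It lay between ZT2 and ZT8 for 33 members (76.7%), against 25.8% of all genes. All 5 called members peaked in the light phase, where 2.45% of all genes were called and peaked, against 3.35% in the dark phase. Leaving out 1 time gave 0 called members (without ZT20) to 9 (without ZT4), with 1 without ZT8, ZT12 or ZT16. The share of all genes called was 3.03% without ZT20, 3.61% without ZT4 and 2.74%, 2.54% and 3.27% without ZT8, ZT12 and ZT16. With time as a factor of 6 levels 1 member passed, Ifih1, against 1.89% of all genes. With libraries rescaled to the same total 10 members (23.3%) did, against 7.21% of all genes, and that scaling put the fitted peak of 64.2% of all genes in the light phase. The exceptions to a light-phase peak were Oas2, Stat2, Oasl1, B2m and the alternative-contig row of Irgm1.

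**Figure D1:**
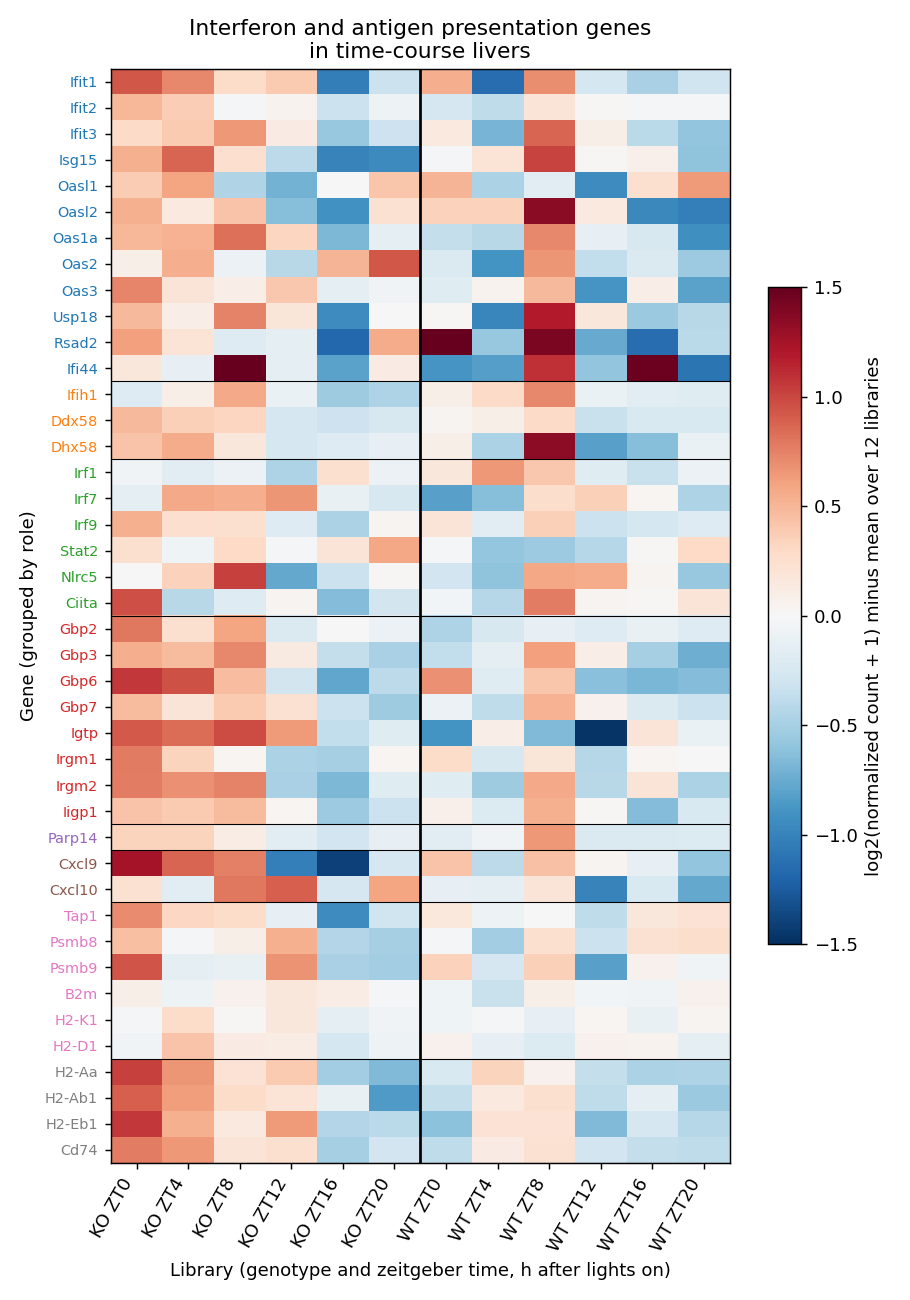
Heat map of 42 members (rows, grouped by role and coloured as in the other plots) in the 12 time-course livers (columns, KO then WT, each from ZT0 to ZT20); colour is log2(normalized count + 1) minus the gene's mean over the 12 libraries, clipped at 1.5 in both directions. KO livers are mostly red from ZT0 to ZT8 and blue at ZT16, and among WT livers the ZT8 library is the reddest column.

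Of the 3 RNA sensors 2 passed the rhythm test. Ifih1 (chr2:62595798-62646255, GRCm38, minus strand) encodes MDA5, which detects long double-stranded RNA. It had 657, 803, 1114, 702, 522 and 546 normalized counts in KO livers from ZT0 to ZT20, against 798, 922, 1240.0, 702, 675 and 665 in WT livers. Both genotypes were highest at ZT8, and KO was below WT at every time, though the 2 values at ZT12 round to the same number. The fitted peak-to-trough difference of Ifih1 was 0.87 on the log2 scale (SE 0.15, n = 12, limma adjusted p = 0.0124) with a peak at ZT6.49. The call was lost without ZT8, ZT16 or ZT20 (limma adjusted p = 0.0725, 0.0648 and 0.0574).

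Ddx58 (chr4:40203773-40239828, minus strand) encodes RIG-I, the sensor of RNA with a 5′ triphosphate. It had 614, 565, 548, 370.4, 355 and 373 normalized counts in KO livers from ZT0 to ZT20, and 454, 467, 536, 349, 375 and 376 in WT livers. In both genotypes the values of ZT0, ZT4 and ZT8 lay above those of ZT12, ZT16 and ZT20. This full separation of all 12 libraries was seen for 2 members, against 0.476% of all genes. The fitted difference of Ddx58 was 0.69 (SE 0.15, limma adjusted p = 0.0365, peak ZT3.93). Leaving out any 1 of the 6 times took the call away, with limma adjusted p between 0.0675 and 0.114, and so did the WT library of ZT8 alone (0.0601). Dhx58, the related helicase LGP2, had a fitted difference of 0.86 (SE 0.40, limma adjusted p = 0.406), with 262 normalized counts in the WT liver of ZT8 and 57.7 to 151 in the other 11 libraries.

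Among the GTPases, Gbp6 and Gbp3 passed. These guanylate-binding proteins assemble on pathogen membranes after interferon. Gbp6 (chr5:105270702-105293698, minus strand) had 481, 449, 319, 191, 134 and 175 normalized counts in KO livers from ZT0 to ZT20, against 370.3, 204, 309, 149, 143 and 147 in WT livers. All libraries of ZT0 to ZT8 lay above all those of ZT12 to ZT20. The fitted peak-to-trough difference was 1.52 on the log2 scale (SE 0.28, limma adjusted p = 0.0194, peak ZT3.48). The call was lost without ZT8, ZT12, ZT16 or ZT20 (limma adjusted p = 0.0649, 0.0836, 0.109 and 0.0568).

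Gbp3 (chr3:142560026-142573209, plus strand) had 144, 137, 162, 108, 76.4 and 69.8 normalized counts in KO livers from ZT0 to ZT20, against 75.9, 88.3, 150.3, 106, 69.4 and 58.5 in WT livers. Both genotypes peaked at ZT8, and KO was above WT at each of the 6 times. The fitted difference was 1.11 (SE 0.23, limma adjusted p = 0.0368, peak ZT6.87). It was not called without ZT8, ZT12, ZT16 or ZT20 (limma adjusted p = 0.245, 0.0944, 0.131 and 0.219) or without the WT library of ZT8 alone (0.108). Iigp1, an immunity-related GTPase, came just outside the threshold (0.86, SE 0.19, limma adjusted p = 0.0518). Its values were 7778, 7618, 8049, 5929.9, 3963 and 4626 normalized counts in KO livers and 6111, 5032, 8418, 5883, 3707 and 4942 in WT livers. Iigp1 passed with ZT4 left out (limma adjusted p = 0.00557). The other 5 GTPases (Gbp2, Gbp7, Igtp, Irgm1 and Irgm2) did not pass, with fitted differences of 0.28 to 0.80 and peaks between ZT1.12 and ZT7.25.

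**Figure D2:**
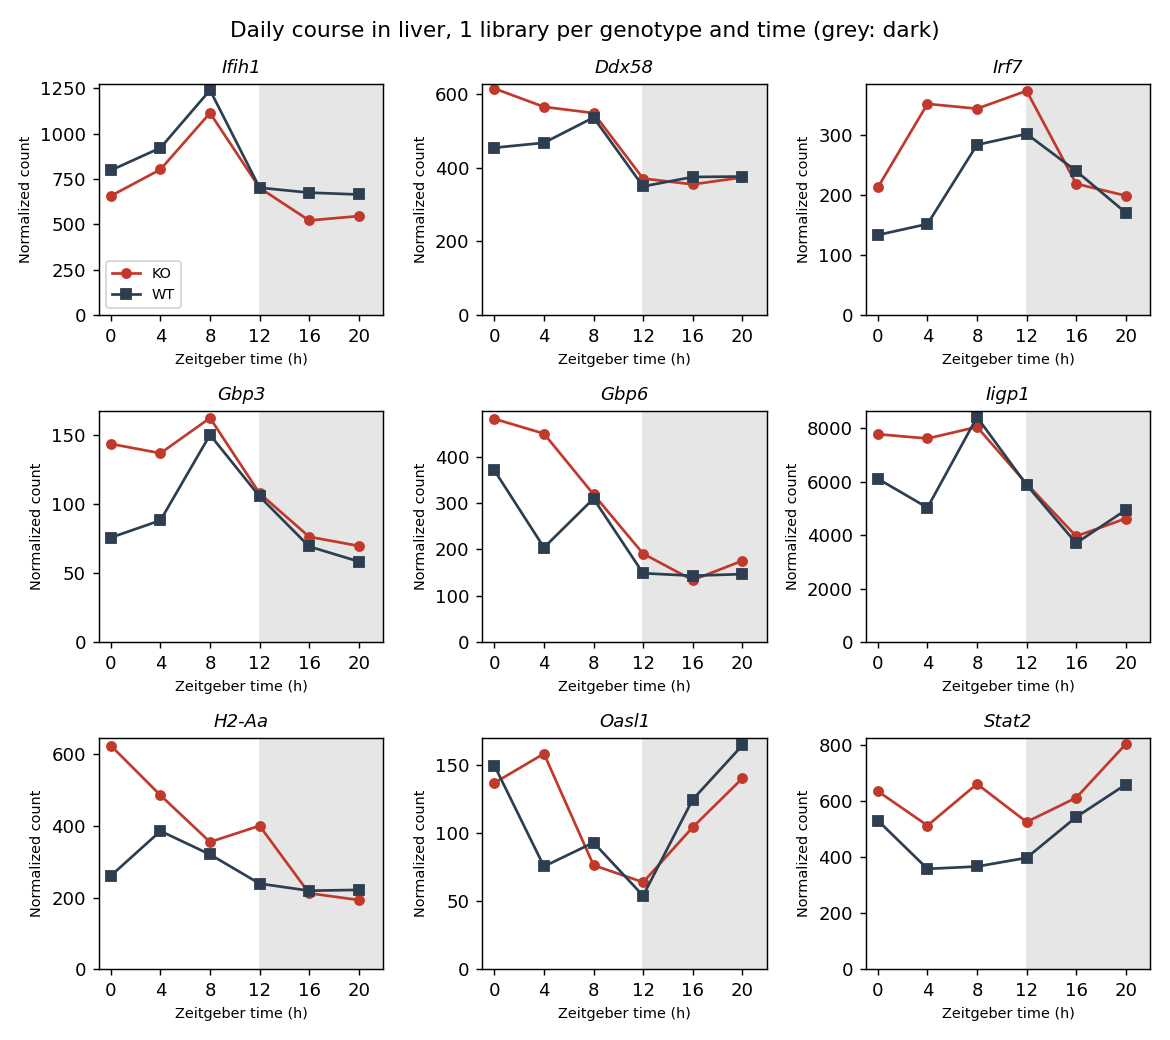
Normalized counts (vertical axes, from 0) of 9 members against zeitgeber time in hours in time-course livers, KO in red circles and WT in dark squares, 1 library per point, with the dark phase in grey. Gbp6 and Ddx58 are higher from ZT0 to ZT8 than later in both genotypes, while Oasl1 and Stat2 are high at ZT20.

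Of the transcriptional regulators, Irf7, the interferon regulatory factor that amplifies type I interferon output, passed the rhythm test. Irf7 (chr7:141262706-141266481, minus strand) had 213, 352, 344, 373, 219 and 199 normalized counts in KO livers from ZT0 to ZT20, against 133, 152, 284, 302, 239.9 and 171 in WT livers. Both genotypes were highest at ZT12, the latest maximum among the called members. The fitted difference was 1.01 (SE 0.21, limma adjusted p = 0.0337, peak ZT10.26). The call was lost without ZT0, ZT8, ZT12 or ZT20 (limma adjusted p = 0.15, 0.141, 0.19 and 0.115) and without the WT library of ZT8 alone (0.0782).

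Stat2, the ISGF3 subunit, ran the other way. It had 634, 512, 660.2, 525, 611 and 802 normalized counts in KO livers, and 530.0, 358, 366, 397, 542 and 658 in WT livers, with both genotypes highest at ZT20. The fitted difference of Stat2 was 0.63 (SE 0.16, peak ZT19.71) and did not pass (limma adjusted p = 0.0858; 0.0285 without ZT8). Irf9, another subunit of ISGF3, had a fitted difference of 0.63 with a peak at ZT3.12 (SE 0.19, limma adjusted p = 0.14), and passed without ZT4 (0.0392). Its values were 517, 426, 423, 312, 256 and 368 normalized counts in KO livers and 409.6, 319, 460.1, 285, 297 and 313 in WT livers. Irf1, Nlrc5 (the activator of class I genes) and Ciita (the activator of class II genes) did not pass, with fitted differences of 0.40, 0.74 and 0.18 (limma adjusted p = 0.492, 0.468 and 0.958).

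The 12 antiviral effectors had large fitted differences with wide errors. Their median peak-to-trough difference was 0.99 on the log2 scale, against 0.58 for all genes tested, yet 0 of 12 passed. Oasl1, a member of the oligoadenylate synthetase family that acts on Irf7 translation in mice, was nearest (1.22, SE 0.28, limma adjusted p = 0.0513). It had 137, 158, 76.4, 63.9, 104 and 139.9 normalized counts in KO livers, and 149, 75.5, 92.9, 54.0, 124 and 164 in WT livers. Its fitted peak was ZT22.33, its lowest value was at ZT12 in both genotypes, and it passed without ZT4 (limma adjusted p = 0.0409) and without the WT library of ZT8 alone (0.0497).

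Isg15, a ubiquitin-like modifier, had 41.1, 52.4, 33.7, 21.2, 13.6 and 14.1 normalized counts in KO livers and 27.8, 32.6, 58.0, 28.6, 29.8 and 18.2 in WT livers. Oasl2 had 59.3, 45.0, 54.7, 25.7, 21.2 and 47.5 in KO livers and 51.8, 52.0, 105, 45.0, 20.2 and 19.4 in WT livers. For both genes the WT maximum was at ZT8, and the fitted differences of 1.40 and 1.49 did not pass (limma adjusted p = 0.102 and 0.129). Ifit3 did not pass either (0.92, SE 0.31, limma adjusted p = 0.211), but was called without ZT4 (1.46, 0.00832). Ifit1 encodes a protein that binds foreign RNA ends, and Rsad2 encodes viperin. Rsad2 and Ifit1 had fitted differences of 1.47 and 0.86 with limma adjusted p of 0.3 and 0.525. The oligoadenylate synthetase genes Oas1a, Oas2 and Oas3 had differences of 1.08, 0.16 and 0.53, Usp18, which removes ISG15, of 0.89, Ifi44 of 1.05 and Ifit2 of 0.19, and none passed (limma adjusted p 0.154 to 0.976). Parp14, an ADP-ribosyltransferase, had 671 to 1027 normalized counts in KO livers and 701 to 1284 in WT livers over the day (fitted difference 0.55, SE 0.18, limma adjusted p = 0.188).

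The chemokine genes Cxcl9 and Cxcl10 had fitted differences of 1.46 and 0.40 (limma adjusted p = 0.195 and 0.83). The 4 class II genes H2-Aa, H2-Ab1, H2-Eb1 and Cd74 had fitted differences of 0.79 to 1.04 on the log2 scale and peaks between ZT4.68 and ZT5.60, and 0 of 4 passed. Cd74, the invariant chain that guides class II molecules, had 984, 911, 664, 686, 409 and 474 normalized counts in KO livers from ZT0 to ZT20, against 444, 632, 678, 477, 452 and 444 in WT livers. H2-Aa had 623, 485, 355, 399.8, 212 and 193 in KO livers and 261, 385, 320.0, 239, 219 and 221 in WT livers. H2-Ab1 had 383, 317, 249, 236, 189.7 and 113 in KO livers and 160.1, 227, 242, 158, 185 and 139 in WT livers. In KO livers these 3 genes were highest at ZT0, and in WT livers at ZT4 or ZT8. The limma adjusted p was 0.0797 for Cd74 (0.0495 without ZT0), 0.0844 for H2-Aa and 0.208 for H2-Ab1.

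The class I genes had smaller fitted differences. Their median over Tap1, Psmb8, Psmb9, B2m, H2-K1 and H2-D1 was 0.18 on the log2 scale, and the smallest adjusted p was 0.32 (Tap1). B2m, the light chain of class I, had 16284 to 19287 normalized counts in KO livers and 13675 to 18251 in WT livers, and H2-K1 had 7156 to 9458 in KO livers and 7194 to 8089 in WT livers. Tap1, a subunit of the peptide transporter, had 358, 271, 264, 201, 114 and 178 normalized counts in KO livers and 244, 207, 219.8, 168, 245 and 254 in WT livers. The KO livers of Tap1 were lower at each later time from ZT0 to ZT16, while WT livers were high at both ends of the series. H2-D1 ranged over 3168 to 5101 in KO livers and 3302 to 3994 in WT livers. Psmb8, an immunoproteasome subunit, ranged over 235 to 481 in KO livers and 232 to 400.2 in WT livers. The H2 genes and the OAS, IFIT, GBP and IRG families have near-identical copies, and Igtp and Irgm2, and also Tap1 and Psmb9, overlap in position, so their values depend on how the authors' estimation shared reads between copies.

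**Figure D3:**
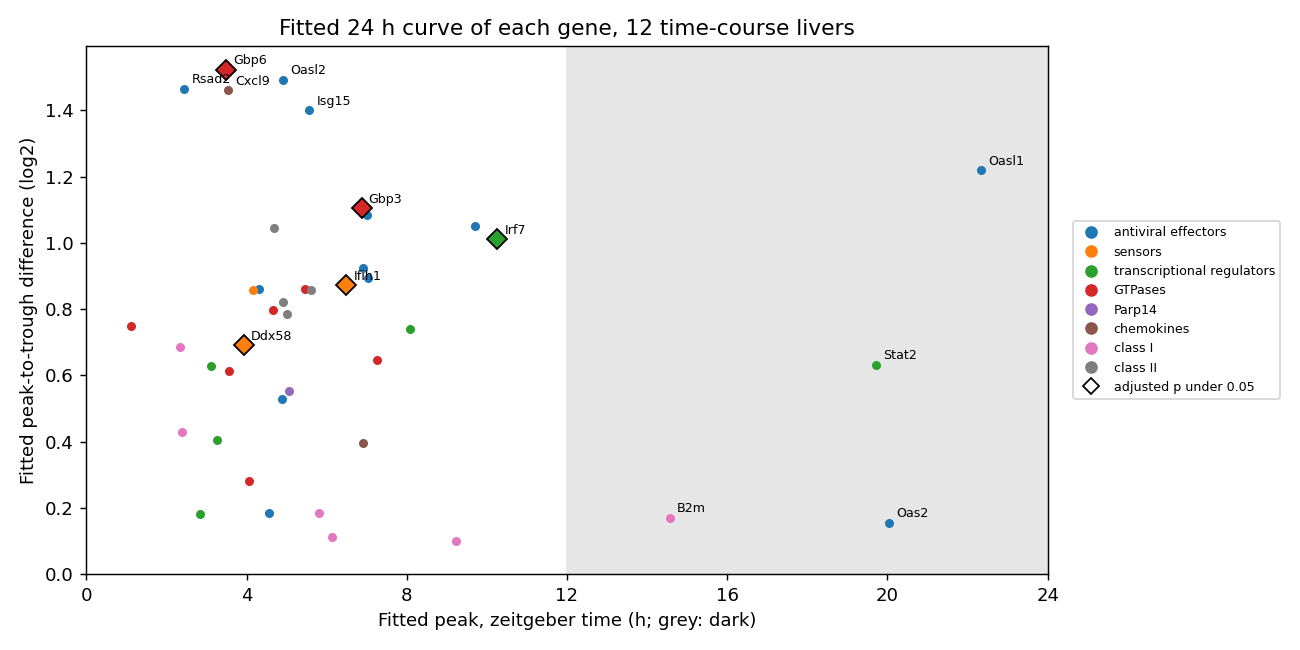
Fitted peak-to-trough difference (log2, vertical axis) against fitted peak in zeitgeber hours (horizontal axis, dark phase in grey) for 42 members over the 12 time-course livers, coloured by role, with diamonds for adjusted p under 0.05. Most points lie between ZT2 and ZT8, the class I genes other than Tap1 and Psmb9 lie below 0.2, and Stat2, Oasl1, Oas2 and B2m lie in the dark phase.

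The daily shape differed in size between the genotypes by description, not by test. Fitted in each genotype alone, the median peak-to-trough difference over members was 1.05 in KO livers and 0.65 in WT livers, while over all genes it was 0.73 in KO livers and 0.67 in WT livers. It was larger in KO for 30 of 43 members, a count that was not made over all genes. Peaks between ZT2 and ZT8 were fitted for 32 members in KO livers and 19 in WT livers, against 26% of all genes in KO and 24.9% in WT. ZT0, ZT4 and ZT8 all lay above ZT12, ZT16 and ZT20 for 17 members (39.5%; 6.04% of all genes) in KO livers and for 9 (20.9%; 6.7% of all genes) in WT livers. The interaction of rhythm with genotype called 0 of 43 members and 0% of all genes (limma, smallest member adjusted p 0.999). At an unadjusted p of 0.05 it gave 5 members (Irf1, Irf7, Cxcl9, Tap1 and Irgm2), or 11.6%, against 4.78% of all genes. Cxcl9, a chemokine that draws activated T cells, was the widest of these, with 166, 127, 118, 33.5, 25.5 and 57.6 normalized counts in KO livers and 93.3, 52.2, 93.8, 71.0, 63.6 and 45.4 in WT livers (unadjusted p = 0.0115 in limma).

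The light-phase values moved with particular libraries. The WT liver of ZT8 held the highest WT value of 26 members, and its median over members was 0.41 above the mean of the 12 libraries on the log2 scale. The KO liver of ZT0 held the highest KO value of 20 members and the KO liver of ZT16 the lowest of 27. Over all genes the medians of the 12 libraries lay within 0.02 of the mean. How many of all genes had their extreme value in these libraries was not counted. Without the WT library of ZT8 the number of called members was 3 (6.98%) in place of 5, against 4.31% of all genes in place of 5.8%. In that fit 36 members had a fitted peak in the light phase, against 50.6% of all genes. The 8 macrophage and Kupffer cell markers summed to 3318 to 4922 normalized counts from ZT0 to ZT8 and to 3239 to 4924 from ZT12 to ZT20, so that the ranges were nearly the same, and 3 of 8 peaked in the light phase. The 6 dendritic cell markers summed to 130.4 to 187 from ZT0 to ZT8 and to 131 to 193 from ZT12 to ZT20. The 4 neutrophil markers, of which 2 were at 0 in both sets, had a median sum of 25.1 from ZT0 to ZT8 (8.14 to 55.9) and 12.4 from ZT12 to ZT20 (8.57 to 26.1). Their genes S100a8 and S100a9 had fitted differences of 1.77 and 1.75 with peaks at ZT0.55 and ZT1.35 (limma adjusted p = 0.146 and 0.133). The median sum of 6 B and plasma cell markers was 91.2 from ZT0 to ZT8 (51.1 to 109.7) and 62.6 from ZT12 to ZT20 (33.7 to 139.4), while those of T and NK cell markers were 46.1 and 10.9 from ZT0 to ZT8 and 43.5 and 10.1 from ZT12 to ZT20. Acute phase genes (4) summed to 427 to 2057 from ZT0 to ZT8 and to 589 to 5275 from ZT12 to ZT20. The 6 hepatocyte markers summed to 878664 to 1135370 from ZT0 to ZT8 and to 1115520 to 1457040 from ZT12 to ZT20, and mitochondrially encoded genes took 6.72% to 13.66% of libraries from ZT0 to ZT8 and 9.75% to 15.5% from ZT12 to ZT20. Their part in the daily pattern was not tested.

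The difference of KO and WT passed the test for 0 of the 43 rows in each of the 3 tables. In the time course the test called 0.00535% of 18702 genes (limma, genotype with time as a factor), and the smallest adjusted p of a member was 0.738. At an unadjusted p of 0.05 there were 4 members (Stat2, Irf7, Ifih1 and Igtp), or 9.3%, against 5.99% of all genes. The authors' deposited adjusted p-value was under 0.05 for 0 of 43 members in liver, kidney and time course, with smallest values of 0.384, 0.302 and 0.467. Over all genes with such a value it was under 0.05 for 211 of 15335, 88 of 18002 and 6 of 16532. At such small shares 0 of 43 members says little about the members.

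In time-course livers 35 of 43 members were higher in KO by the fitted log2 fold change (81.4%, against 49.6% of all genes), with a median of 0.15 against -0.002 for all genes. The 8 GTPases were all above 0, as were the 4 class II genes, at 0.35 to 0.51. The number of members with KO above WT was 37 at ZT0, 38 at ZT4, 18 at ZT8, 32 at ZT12, 11 at ZT16 and 23 at ZT20, while the shares over all genes were 47.1%, 50.5%, 48.4%, 48.6%, 48.4% and 48.9%. No member had all KO livers above or below all WT livers, which held for 0.0856% and 0.112% of all genes. Members were thus mostly above at ZT0, ZT4 and ZT12, and mostly below at ZT16. Leaving out 1 time gave 30 to 37 members above 0. Acute phase genes summed to 592 to 5275 normalized counts in KO livers and 427 to 839 in WT livers, and macrophage markers to 3239 to 4924 in KO livers and 3318 to 4595 in WT livers. Their part in the member values was not tested.

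Stat2, whose values are given above, was higher in KO livers at all 6 times, by 0.41 on the log2 scale (SE 0.10, limma unadjusted p = 0.00303, adjusted p = 0.738). KO lay above WT at every time for 2 members, Stat2 and Gbp3, against 1.6% of all genes. Irf7 differed by 0.42 (SE 0.17, limma adjusted p = 0.828) and Ifih1 by -0.22 (SE 0.08, limma adjusted p = 0.828). Igtp, an immunity-related GTPase, had the largest fold change of the 42 genes at 0.94 (SE 0.34, limma adjusted p = 0.828). Igtp had 984, 928, 1029, 813, 403 and 459 normalized counts in KO livers from ZT0 to ZT20, against 279, 559, 329, 188, 597 and 485 in WT livers. KO was above WT from ZT0 to ZT12 and below it at ZT16 and ZT20.

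**Figure D4:**
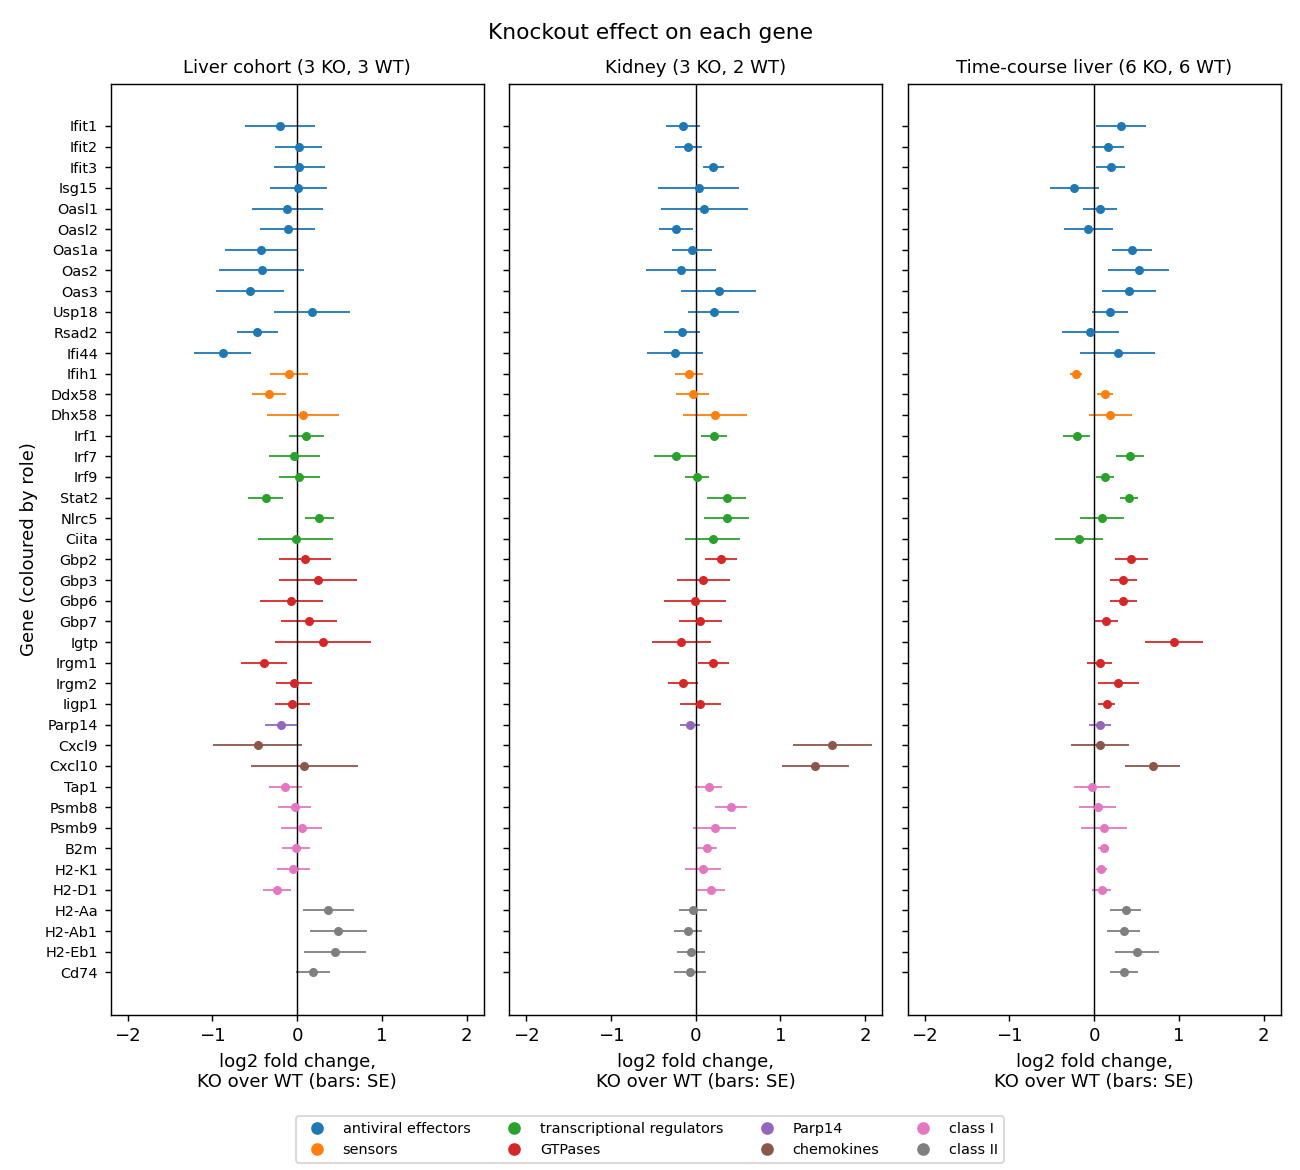
Log2 fold change of KO over WT (horizontal axes) with its standard error for 42 members in the liver cohort, the kidneys and the time-course livers, coloured by role. In the time course most points lie right of 0, in kidney Cxcl9 and Cxcl10 stand apart at 1.61 and 1.41, and no gene passed an adjusted p of 0.05.

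In the liver cohort the test called 0.0157% of 19088 genes and 0 members (limma, smallest adjusted p 0.592). At an unadjusted p of 0.05 there was 1 member, or 2.33%, against 7.99% of all genes. This was Ifi44, an interferon-induced antiviral protein, with 46.7, 47.3 and 85.1 normalized counts in KO livers and 86.6, 99.0 and 141 in WT livers, a difference of -0.88 on the log2 scale (SE 0.33, limma adjusted p = 0.592). The groups of Ifi44 did not overlap, which held for 1 member lower in KO and 0 higher, against 6.86% and 7.07% of all genes. Over the members 18 of 43 were above 0 (all genes 50.3%), with a median of -0.03. The 4 class II genes were all above 0 at 0.19 to 0.48. H2-Aa had 628, 464 and 426 normalized counts in KO livers and 286, 322 and 623 in WT livers, so the groups overlapped.

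The WT livers of the cohort differed among themselves in these genes. WT liver 1 held the lowest WT value of 35 members and WT liver 3 the highest of 27, counts not made over all genes. Their medians over members were -0.36 and 0.37 on the log2 scale around the mean, while all-gene medians stayed within 0.02. Without WT liver 1, 6 members were above 0 in place of 18, and the median was -0.30. Mitochondrially encoded genes took 7.39% of WT liver 1 and 2.27% to 4.54% of the other livers. The 4 acute phase genes summed to 1403 to 1747 normalized counts in KO livers and 16160 to 127058 in WT livers, and the 8 macrophage and Kupffer cell markers to 7236 to 8573 in KO livers and 7326 to 11360 in WT livers. NK cell markers (4) summed to 16.6 to 40.1 in KO livers and 11.1 to 15.2 in WT livers. Neutrophil markers (4) summed to 19.4 to 48.9 in KO livers, where 2 were at 0, and 34.1 to 197 in WT livers. B and plasma cell markers summed to 61.1 to 92.1 in KO livers and 70.8 to 142 in WT livers, and T cell markers to 73.2 to 88.9 in KO livers and 42.1 to 85.1 in WT livers. No acute phase or macrophage marker was at 0 in every library of a group. The part of these lists in the member values was not tested.

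In kidney the test called 0.0045% of 22224 genes and 0 members (limma, smallest adjusted p 0.841). At an unadjusted p of 0.05 there were 2 members, or 4.65%, against 5.4% of all genes, and both were chemokines. Cxcl10 had 82.0, 53.2 and 38.6 normalized counts in KO kidneys and 17.5 and 23.2 in WT kidneys, and Cxcl9 had 30.2, 29.6 and 54.2 in KO kidneys and 7.81 and 16.1 in WT kidneys. The log2 fold changes were 1.41 (SE 0.40) for Cxcl10 and 1.61 (SE 0.46) for Cxcl9, each with a limma adjusted p of 0.841. Every KO kidney lay above every WT kidney for 5 members (Cxcl9, Cxcl10, Ifit3, Psmb8 and Tap1), or 11.6%, against 9.9% of all genes. Every KO kidney lay below for Oasl2 and the alternative-contig row of Irgm1, or 4.65%, against 10.6% of all genes.

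The 6 class I genes were all above 0 in kidney, at 0.09 to 0.42. Psmb8 had 238, 209.7 and 214 normalized counts in KO kidneys and 185 and 147 in WT kidneys (log2 fold change 0.42, SE 0.19, limma adjusted p = 0.899). Tap1 had 216, 219.9 and 224 in KO kidneys and 198 and 197 in WT kidneys (0.16, SE 0.16, limma adjusted p = 0.952). The class II genes lay between -0.09 and -0.03. B and plasma cell markers (6 genes) summed to 116 to 188 normalized counts in KO kidneys and 203 to 634 in WT kidneys, and T cell markers (6) to 39.7 to 101 in KO kidneys and 77.4 to 117 in WT kidneys. Dendritic cell markers summed to 539 to 580 in KO kidneys and 409 to 516 in WT kidneys, and neutrophil markers (4) to 7.66 to 29.5 in KO kidneys and 52.2 to 58.4 in WT kidneys. Mitochondrially encoded genes took 16.06% of WT kidney 1 and 7.4% to 9.54% of the other kidneys. Of 8 macrophage markers 2 were at 0 in all kidneys. The part of these cells in the chemokine values was not tested.

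The knockout effects were also set against each other. The difference of kidney minus liver was called for 0 members and 0.00545% of 18354 genes in a joint limma fit. It was above 0 for 30 of 43 members (all genes 49.5%). At an unadjusted p of 0.05 there were 2 members, against 4.41% of all genes, namely Cxcl9 (2.08, SE 0.79) and Stat2 (0.74, SE 0.33), each with a limma adjusted p of 1. The difference of liver cohort minus time course was called for 0 members and 0.0388% of 18029 genes. At an unadjusted p of 0.05 there were 2 members, against 10.4% of all genes, namely Stat2 at -0.78 (SE 0.22, limma adjusted p = 0.232) and Ddx58 at -0.46 (SE 0.21, limma adjusted p = 0.473). The difference was above 0 for 7 of 43 members (all genes 50.6%). That number moved to 16, 12 or 11 without ZT0, ZT4 or ZT12. Without WT liver 2, WT liver 3 or KO liver 3 it was 12, 18 or 14. For liver cohort minus time course the median over members was -0.168. Acute phase genes were above 0 for 0 of 4 (median -5.438, 2 called lower), and macrophage and Kupffer cell markers for 0 of 8 (median -0.399). NK cell markers were above 0 for 4 of 4 and hepatocyte markers for 5 of 6. The part of these lists in the member values was not tested here either.

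The tissues were also set side by side. The tables were normalized separately, so levels are given as ppm of each library total, with no test, over 5 kidney and 6 liver cohort libraries. All kidneys lay above all livers for 10 members (23.3%), against 53.1% of 18354 genes. They lay below for 19 members (44.2%), against 7.05% of those genes, and the ranges overlapped for 14. The class II genes were among those higher in kidney, with Cd74 at 100.0 to 137.5 ppm in kidney against 27.04 to 44.06 in liver, and H2-Eb1 at 45.68 to 60.59 in kidney against 6.77 to 19.88 in liver. Their activator Ciita lay at 4.373 to 9.187 in kidney and 0.8547 to 2.072 in liver. All 6 class I genes were lower in kidney, with B2m at 130.5 to 180.9 in kidney and 813.4 to 949.1 in liver, and the median of their activator Nlrc5 was 6.336 in kidney and 20.15 in liver.

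Iigp1 showed the widest gap, at 9.454 to 15.47 ppm in kidney against 315.4 to 455.4 in liver. The antiviral effectors split, on a scale where 53.1% of all genes lay above in every kidney and 7.05% below. Rsad2, Ifit2, Ifi44 and Oasl2 were higher in every kidney (Rsad2 28.28 to 40.75 ppm in kidney, 7.132 to 12.86 in liver), while Isg15, Oasl1 and Usp18 were lower. The sensors Ifih1 and Dhx58 were lower in kidney, and Ddx58 overlapped at 20.81 to 31.47 in kidney and 25.3 to 40.52 in liver. Levels of different genes are not compared here, since the values are not per length.

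**Figure D5:**
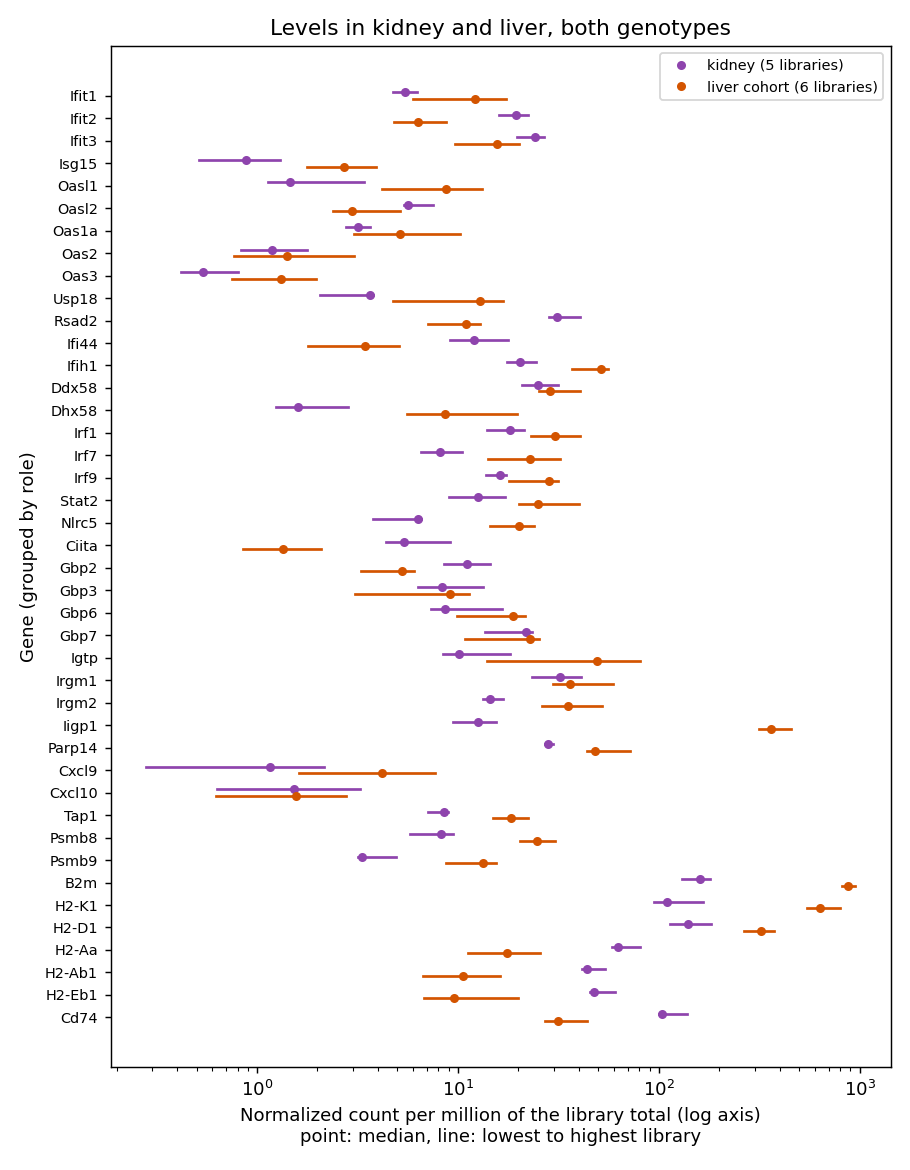
Normalized count in ppm of the library total (log axis) of 42 members in 5 kidney and 6 liver cohort libraries, both genotypes together; points are medians and lines run from the lowest to the highest library. Class II genes and Ciita lie to the right in kidney, and class I genes, Nlrc5 and Iigp1 to the right in liver.

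The rest of the pathway, taken from 4 further lists, had 0 genes called for KO over WT in any table. Of 11 interferon ligand and receptor genes, Ifna1 was listed at 0 in all 23 libraries. Ifnb1, Ifnl2 and Ifnl3 were above 0 in 1 kidney each, with at most 1.07 normalized counts, and in no liver. Ifng, the gamma interferon, reached 2.97 normalized counts in the time course, where 7 of 12 libraries were above 0. The receptor genes Ifnar1, Ifnar2, Ifngr2 and Il10rb differed by -0.01 to 0.13 between KO and WT in the time course (log2, limma adjusted p 0.919 to 0.993), and 6 of 7 genes tested peaked in the light phase with none called.

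In the further lists the rhythm calls are to be read against 5.8% of all genes called, and the light-phase peaks against 50.6%. Of 22 signalling genes 1 was rhythmic, Mavs, the mitochondrial adaptor of RIG-I and MDA5, with a fitted difference of 0.57 and a peak at ZT16.42 (limma adjusted p = 0.0346). Tyk2 and Irf5 (adjusted p = 0.0754 and 0.0913) and Ptpn1 (0.856) did not pass in limma, and 11 of 22 peaked in the light phase. Of 37 other interferon-induced genes 27 peaked there, and 1 was called, the GTPase gene Ifi47 (1.35, peak ZT1.20, limma adjusted p = 0.0388). Gbp4 differed between KO and WT in the time course by 0.99 (SE 0.20, limma adjusted p = 0.738). Herc6 and Tgtp1 were not called in any comparison. Of 30 other antigen presentation genes tested 20 peaked in the light phase and 2 were called. They were Psmb10, an immunoproteasome subunit (1.38, peak ZT9.82, limma adjusted p = 0.0114), and H2-DMb2, part of the class II peptide exchanger (2.53, peak ZT7.04, limma adjusted p = 0.0434). H2-Q4 and H2-Q6 did not pass (adjusted p = 0.144 and 0.676 in limma).

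Of the members, 8 MHC genes lie on the chromosome of Nudt12. H2-K1, H2-D1, H2-Aa, H2-Ab1, H2-Eb1, Tap1, Psmb8 and Psmb9 are at least 23.73 Mb from Nudt12 on chromosome 17 in GENCODE vM21 (GRCm38), and the founders carried alleles of 2 strains. Whether DBA/2J alleles remained there was not tested. H2-Ea-ps, the class II alpha gene annotated as a pseudogene in the reference strain, was listed at 0 in all 23 libraries of both genotypes.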

How the data were processed

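Libraries were stranded, made from 500 ng of total RNA after removal of ribosomal RNA, and read from one end for 100 bases, per the labels' protocols. The deposited values are the authors' estimated counts, already normalized within each of 3 tables, a signal that is never negative. The submitters' processing notes name GRCm38, Salmon 0.12.0, DESeq, DESeq2 1.24.0 and R 3.6.0 without saying what each was used for. The tables also hold the authors' deposited log2 fold change, which was not used, and adjusted p-value, per the file headers. Whole reads could not be recovered, since 12.35 to 26.58% of low values were whole multiples of a library's step (to within 0.001), so count models were not run. Approximate depth was each total divided by that step, and it limits genes with values of a few counts.

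Groups came from the labels for 24 samples, of which 23 have a column. Tests were two-sided. Values were taken as log2(value + 1), genes whose mean was under 1 were dropped, and models were fitted in R 4.3.3 with limma 3.58.1 and its trended prior. Adjustment was by Benjamini-Hochberg over all genes of a fit, with a threshold of 0.05. Fold changes on this scale understate the change of low genes. Genotype was fitted alone in liver and kidney, and with time as a factor in the time course. Rhythm was a cosine and a sine of 24 h with genotype, and its interaction with genotype was tested in a second model. Differences between tables were interactions in a joint fit. In the time course, KO and WT libraries of one time form a pair because the labels give them a shared time of collection. Their deviations from the genotype means correlated at 0.037 to 0.167 over the 6 times. Liver and kidney replicate numbers were not used as pairs. The labels do not say whether both organs came from the same mice, and the joint fit took their libraries as independent.

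The members and lists were chosen with earlier results of these data known. All members are described by role. Values by library are given for members past the threshold and for up to 3 others of each role by smallest p, and up to 4 genes of each further list are named by smallest p. Dhx58, Ifi44, Igtp and the members named only by a range or count were added after their values were seen. Of 43 rows, 34 matched GENCODE vM21 with version, 8 without, and 1 did not. Promoters came from RefSeq tables with Python 3.11.15 and pandas 2.3.3, and plots were drawn with matplotlib 3.10.9. Scripts were tested on simulated data. Alternatives were pseudocounts of 0.1 and 5, no filter or a mean of at least 10, rescaled values, left-out libraries or times, and other forms of the time term.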

Additional observations from a re-analysis of the deposited data

Results flagged for a closer look

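In 8 of 86 sets of 6 time-course libraries (43 rows in each genotype) the highest value stood far from the rest, with a gap to the next value above 0.625 of the whole range. Chance would flag about 1 in 20 sets if the values were independent and normal, which was not checked. How many sets of all genes would be flagged was not counted. The 6 libraries of a set are different times of day, so that a true daily peak can stand apart in the same way. Of the 8, 6 are the WT liver of ZT8, the shallowest library. There Dhx58 had 262 normalized counts (next 109.1), Usp18 had 231.1 (next 113.3), Oas2 had 22.26 (next 11.71) and Parp14 had 1284 (next 789.7). In that library Isg15 had 58.04 normalized counts (next 32.62) and Oas1a had 63.77 (next 35.09). In KO livers Ifi44 stood apart at ZT8 with 81.27 normalized counts (next 29.78), and Ciita at ZT0 with 61.0 (next 31.69).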

How the results depend on the processing

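The number of members called for KO over WT stayed at 0 under every alternative run in liver, kidney and time course, as did the counts for the rhythm by genotype, for kidney minus liver and for liver cohort minus time course. The time-course fit without the time term (genotype only) also called 0 members and changed no other call. The rhythm call was less stable. It held for 5 members, and for 10 after rescaling to the same total, for 1 with time as a factor of 6 levels, and for 3 without the WT library of ZT8 (an alternative chosen after seeing the data). Leaving out each time gave 0 to 9 members, with 0 without ZT20, 9 without ZT4, and 1 without ZT8, ZT12 or ZT16. Over all 14 alternatives of the rhythm test the share of all genes called was 1.89% to 8.73%. The cause was not tested. The number of members with a light-phase peak lay between 34 and 40 under all 13 alternatives, against 48.3% to 50.8% of all genes, and 64.2% after rescaling to the same total. The number of members above 0 in the liver cohort lay between 6 and 27 with 1 library left out, and for liver cohort minus time course between 5 and 18 with 1 library or time left out. Over all genes, calls ranged over 0 to 55 in liver, 0 to 2 in kidney, 0 to 1 in the time course, 354 to 1349 for rhythm and 0 to 130 for liver cohort minus time course. Summing both rows of Irgm1 (also chosen after seeing the data) moved none of its calls. No result changed direction while called. With 1 library per genotype and time, and 2 WT kidneys, small differences were not detectable at this depth and number. Larger ones could be missed too. In kidney Cxcl9 and Cxcl10 differed by 1.61 and 1.41 on the log2 scale and did not pass (limma adjusted p = 0.841 each). The counts of 0 called members therefore do not show that changes of this size were absent.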
